A study of Homo sapiens with 27 samples.

Results

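Keratins are the intermediate filament proteins of epithelial cells, and 10 of them are described here out of 60619 genes quantified by RNA sequencing in 2 breast cancer cell lines. The members were taken by name: KRT7, KRT8, KRT18 and KRT19, the keratins of luminal or simple epithelium, KRT5, KRT14, KRT15 and KRT17, the keratins of basal epithelium, and KRT80 and KRT23. All 10 had a line in the count table and all are protein-coding. MM134 (MDA-MB-134VI) and SUM44 are estrogen receptor-positive lines of invasive lobular carcinoma, a breast cancer whose growth is driven by estrogen. The study derived long-term estrogen-deprived (LTED) variants of each line and sequenced them beside the parental cells, with 27 libraries in 9 groups of 3.

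The MM134 groups were the parental cells, deprived of hormone for 3 days before collection, and 4 variants called LTED with the letters A, B, D and E, in which order their values are given. The SUM44 groups were SUM44PE parental and SUM44F parental cells, also deprived for 3 days, and the variants LTED-A and LTED-B. SUM44F came from SUM44PE by months of growth in another serum-containing medium, and it is the parental culture of the SUM44 variants. The LTED cells were kept for months in medium with charcoal-stripped serum until they grew out, so each LTED group is 1 variant of 1 line. In the study the 3 days of deprivation of the parental cells were also spent in medium with charcoal-stripped serum. Months in that medium and time in culture cannot be told apart from estrogen deprivation. Replicates were wells of one culture, so p-values measure the spread between these samples, which may be technical. SUM44 LTED-A replicates 2 and 3 differed by less than the sampling noise, with a chi-square per degree of freedom of 0.312 against 2.35 to 58.1 in the other 26 pairs, and were counted as 1 sample. That group therefore has n = 2, with replicate 1 and the mean of replicates 2 and 3.

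Keratins form filaments only as pairs of a type I and a type II protein. The type II genes here are KRT7, KRT8, KRT80 and KRT5, which lie in the type II cluster of chromosome 12, and the type I genes are KRT18, KRT19, KRT14, KRT15, KRT17 and KRT23. KRT18 is the exception of its type in lying beside KRT8 on chromosome 12, while the other type I genes lie on chromosome 17. In hg38 the type II genes are KRT80 (ENSG00000167767, chr12:52168996-52192014), KRT7 (ENSG00000135480, chr12:52232520-52252186), KRT5 (ENSG00000186081, chr12:52514575-52520530) and KRT8 (ENSG00000170421, chr12:52897187-52949954), followed by KRT18 (ENSG00000111057, chr12:52948871-52952906). On chromosome 17 lie KRT23 (ENSG00000108244, chr17:40922700-40937646), KRT15 (ENSG00000171346, chr17:41513745-41522529), KRT19 (ENSG00000171345, chr17:41523617-41528308), KRT14 (ENSG00000186847, chr17:41582279-41586895) and KRT17 (ENSG00000128422, chr17:41619442-41624842). In the breast, KRT8 and KRT18 form the main pair of luminal cells, and KRT5 and KRT14 that of basal and myoepithelial cells.

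KRT8, KRT18 and KRT19 have many processed copies elsewhere in the genome, which bears on how reads can be assigned to them. In the annotation (GENCODE 44, hg38) 51 pseudogenes are named for KRT8, 67 for KRT18, 5 for KRT19 and 8 for KRT17. The 31-base words of 1 reference transcript per gene (MANE Select) were looked up in other genes' transcripts. Of these words 59.8% for KRT8 and 66.9% for KRT18 also occur there. The share was 46.8% for KRT14, 37.7% for KRT17, 11.4% for KRT19, 5.27% for KRT7 and 0% for KRT23. The first 60 coding bases of KRT18 (chr12:52949174-52949233, plus strand), the member with the largest shared part, are printed with those of its copy KRT18P31 (chr5:36885206-36885265, plus strand) to show how close such copies are. Capitals mark the bases that differ, and both sequences are from hg38.
KRT18: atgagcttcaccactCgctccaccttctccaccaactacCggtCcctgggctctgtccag
KRT18P31: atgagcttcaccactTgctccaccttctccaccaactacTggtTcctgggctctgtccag
The stretches differ at 3 bases. Counts listed for the pseudogenes were 0.535% to 2.5% of the pooled KRT8 counts of a library, 0.726% to 1.76% for KRT18 and 0.0413% to 0.202% for KRT19. For KRT17 they were 47.2% to 100%, so the low KRT17 levels are uncertain.

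Library totals ran from 28583554 to 134882175 counts, with a median of 44018412. Levels are normalised counts per 1000000 counts of a library (CPM). A gene was called where it differed by more than 1.5-fold at an adjusted p under 0.001 in edgeR's quasi-likelihood test, with Benjamini-Hochberg adjustment over all genes tested. All 7 luminal markers (KRT8, KRT18, KRT19, EPCAM, ESR1, GATA3 and FOXA1) passed 3 counts in at least 1 library of every group. The 8 basal or myoepithelial markers were KRT5, KRT14, KRT17, TP63, ACTA2, MYH11, CNN1 and OXTR. KRT5 stayed at or under 3 counts in all MM134 groups and in the SUM44 variants, and KRT14 and KRT17 in some of these. The other basal markers passed 3 counts in every group, and all 8 did in SUM44PE and SUM44F. The basal markers summed to 7.91 to 15.5 CPM per library and the luminal ones to 4374 to 8454 CPM. SUM44F replicate 1 stood apart by its fibroblast markers (COL1A1, COL1A2, COL3A1, PDGFRB and DCN), whose summed level was 304 CPM against 9.47 and 8.38 CPM in SUM44F replicates 2 and 3 and 5.02 to 33.2 CPM in all other libraries. CD68, a macrophage marker, rose in the 4 MM134 variants by 6.11, 5.04, 4.28 and 3.66 on the log2 scale, while the T cell marker CD3E was at or under 3 counts in all MM134 groups. The part of these markers in the keratin results was not tested, and in bulk RNA fewer cells of a type and less RNA per cell cannot be told apart.

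The keratin RNA of these cells was nearly all KRT7, KRT8, KRT18 and KRT19, which held 97.7% to 99.6% of the CPM of all 55 protein-coding keratin genes in every group. The 10 members summed to 3420 CPM in MM134 parental and 6207, 5081, 5233 and 5373 CPM in its variants. In SUM44PE, SUM44F, SUM44 LTED-A and SUM44 LTED-B they summed to 5752, 5585, 5361 and 3434 CPM. The summed level was thus higher in every MM134 variant library than in every MM134 parental library, while SUM44 LTED-B lay below all other SUM44 libraries and close to MM134 parental.

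The order of the groups differed by member. Group means of KRT7 ran from 397 and 394 CPM in MM134 LTED-A and LTED-E, whose ranges overlapped, to 39.4 CPM in SUM44 LTED-B. KRT8 and KRT18 were highest in SUM44PE (2795 and 1405 CPM) and lowest in MM134 parental (589 and 489 CPM), with overlapping ranges among SUM44PE, SUM44F and SUM44 LTED-A. KRT19 was highest in MM134 LTED-A (3827 CPM) and lowest in SUM44 LTED-B (999 CPM), and no SUM44 library reached the MM134 range. By mean CPM among all genes KRT19 ranked 9 to 14 in the MM134 groups and KRT8 ranked 11 in both SUM44 parental cultures.

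**Figure D1:**
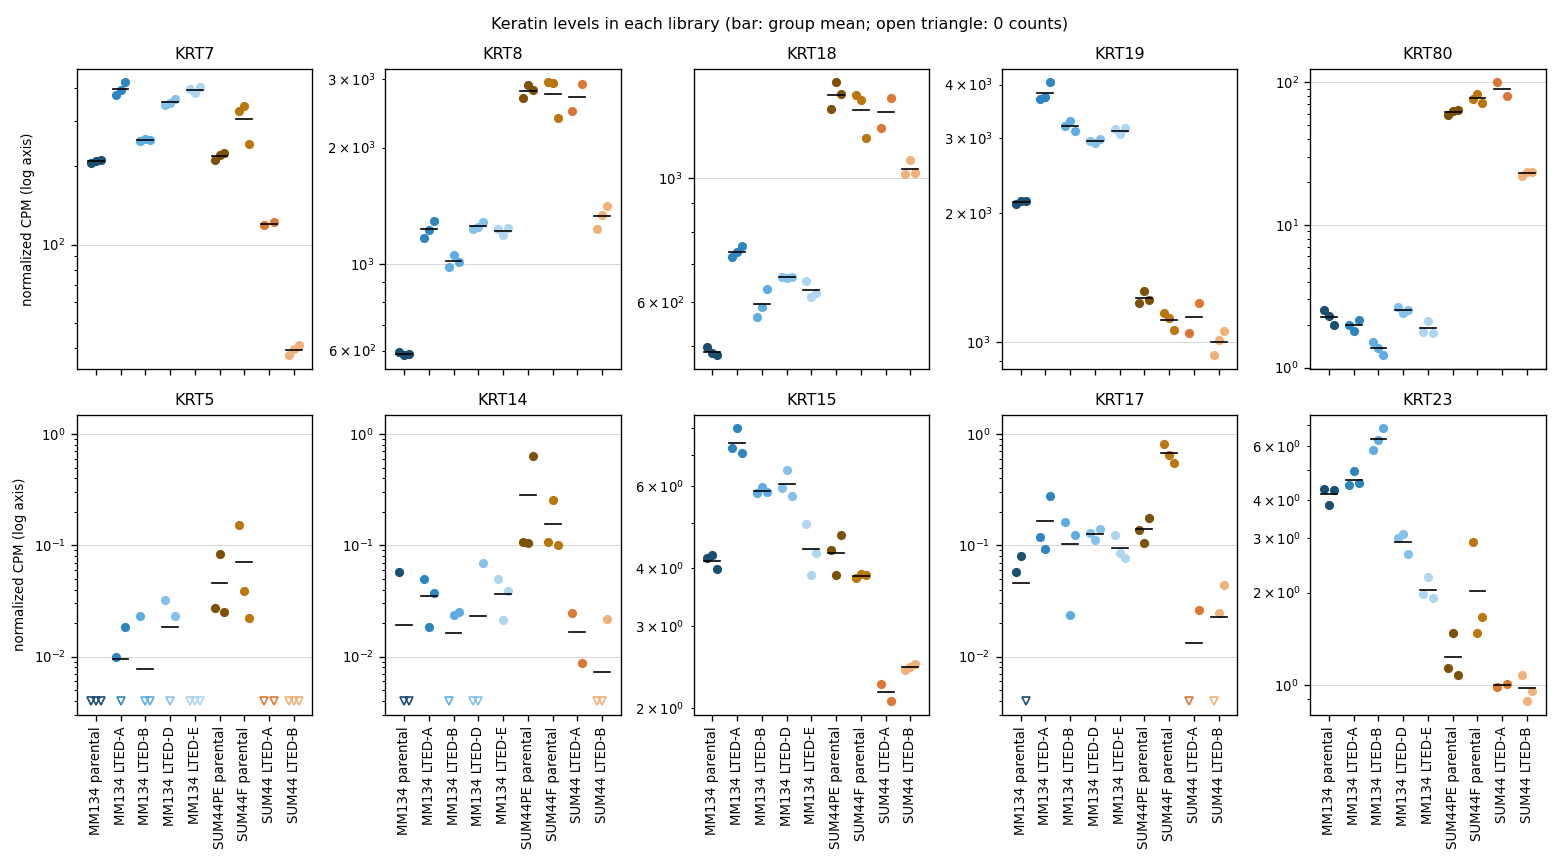
Level of each of the 10 keratins in every library, in CPM on a log axis, with 1 panel per gene and the 9 groups along the horizontal axis. Points are libraries, bars are group means and open triangles mark libraries with 0 counts. KRT7 runs from a mean of 397 CPM in MM134 LTED-A down to 39.4 CPM in SUM44 LTED-B.

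KRT8, the type II partner of KRT18, rose in all 4 MM134 variants and fell in 1 of the 2 SUM44 variants. It measured 595, 584 and 588 CPM in the MM134 parental replicates, 1168, 1230 and 1294 CPM in LTED-A, with 985, 1058 and 1012 CPM in LTED-B. In LTED-D it measured 1234, 1251 and 1287 CPM, and in LTED-E 1231, 1193 and 1243 CPM. Every variant library was above every parental library. The log2 fold changes were 1.06 ± 0.03 (SE), 0.79, 1.11 and 1.06 in the 4 variants, with edgeR adjusted p-values of 4.24e-15, 4.18e-13, 3.3e-15 and 4.03e-15. These calls held under each alternative and each left-out library.

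In SUM44 cells KRT8 measured 2676, 2893 and 2817 CPM in SUM44PE, 2942, 2936 and 2381 CPM in SUM44F, 2486 and 2911 CPM in LTED-A, with 1234, 1341 and 1415 CPM in LTED-B. The ranges of SUM44PE, SUM44F and LTED-A overlapped, and all LTED-B libraries lay below them. KRT8 was 2.07-fold lower in LTED-B than in SUM44F (log2 -1.05 ± 0.14 (SE), edgeR adjusted p = 0.000117). The call was lost, at edgeR adjusted p-values of 0.00112, 0.00213, 0.00191 and 0.00107, without SUM44F replicate 2 or LTED-B replicate 1, 2 or 3, while KRT8 stayed lower in LTED-B in each of these fits. In LTED-A the difference from SUM44F was -0.03 ± 0.15 (edgeR adjusted p = 0.914) and its sign depended on the scaling. LTED-A was 1.02 ± 0.15 above LTED-B on the log2 scale (edgeR adjusted p = 0.000587). That call was lost in 6 of 8 fits that left out 1 library, those without SUM44F replicate 2 (1.03), LTED-A replicate 1 (1.15), LTED-A replicates 2 and 3 (0.90), and LTED-B replicates 1, 2 or 3 (0.97, 1.03 and 1.07). It was also lost with DESeq2's size factors (1.03, adjusted p = 0.00124). The order of the group means had SUM44 LTED-B (1330 CPM) next to MM134 LTED-D (1257 CPM), with overlapping ranges.

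KRT18, the main type I keratin of simple epithelium, measured 498, 487 and 482 CPM in MM134 parental, 721, 738 and 754 CPM in LTED-A, with 564, 588 and 634 CPM in LTED-B. It measured 665, 662 and 664 CPM in LTED-D and 653, 613 and 622 CPM in LTED-E. All variant libraries were above all parental libraries, as for KRT8, but by less. The log2 differences were 0.59 ± 0.03, 0.29, 0.45 and 0.37 in the 4 variants at edgeR adjusted p-values of 3.4e-11, 9.64e-07, 1.84e-09 and 2.46e-08. Only LTED-A passed the 1.5-fold minimum, by a margin so small that the difference of 0.58 missed it in 8 of 15 fits without 1 library. Those were the fits without MM134 parental replicate 2 or 3, LTED-A replicate 2 or 3, any LTED-B replicate, or LTED-E replicate 3. Adding the pseudogene counts to KRT18 also gave 0.58.

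In SUM44 cells KRT18 measured 1325, 1480 and 1410 CPM in SUM44PE, 1404, 1378 and 1178 CPM in SUM44F, 1229 and 1388 CPM in LTED-A, with 1017, 1077 and 1020 CPM in LTED-B. LTED-B lay below the other groups without overlap, and the other 3 overlapped. Neither difference from SUM44F was called, at -0.01 on the log2 scale in LTED-A and -0.35 in LTED-B (edgeR adjusted p = 0.0261).

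KRT19, a type I keratin without the usual tail domain, was the most abundant member in all MM134 groups. It measured 2098, 2137 and 2134 CPM in MM134 parental, 3694, 3742 and 4045 CPM in LTED-A, with 3203, 3291 and 3108 CPM in LTED-B. It measured 2951, 2913 and 2975 CPM in LTED-D and 3140, 3057 and 3160 CPM in LTED-E. Every variant library exceeded every parental library, and LTED-A was above the others. KRT19 rose by 0.84 ± 0.03 in LTED-A (edgeR adjusted p = 5.87e-14) and by 0.60 in LTED-B (edgeR adjusted p = 1.35e-11). The LTED-B difference was 0.58, under the 1.5-fold minimum, without LTED-B replicate 2 and with no filter on low counts. LTED-D and LTED-E differed by 0.49 and 0.57, under the 1.5-fold minimum at edgeR adjusted p-values of 2.39e-10 and 2.27e-11.

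By contrast with MM134, KRT19 kept a narrow range in SUM44 cells. It measured 1229, 1314 and 1250 CPM in SUM44PE, 1170, 1139 and 1063 CPM in SUM44F, 1047 and 1233 CPM in LTED-A, with 930, 1011 and 1057 CPM in LTED-B. LTED-B lay just under the SUM44F range, while LTED-A overlapped it. The differences from SUM44F were 0.02 in LTED-A and -0.17 in LTED-B (edgeR adjusted p = 0.224), neither called.

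KRT7, a type II keratin of glandular and simple epithelia, moved in opposite directions in the 2 lines. It measured 206, 210 and 211 CPM in MM134 parental, 377, 394 and 421 CPM in LTED-A, with 251, 256 and 252 CPM in LTED-B. It measured 345, 352 and 365 CPM in LTED-D and 398, 382 and 403 CPM in LTED-E. All variant libraries were above the parental range, with LTED-B nearest to it. KRT7 rose by 0.92 ± 0.03 in LTED-A, 0.78 in LTED-D and 0.93 in LTED-E, with edgeR adjusted p-values of 3.45e-14, 6.55e-13 and 3.42e-14. In LTED-B the difference of 0.28 was under the 1.5-fold minimum (edgeR adjusted p = 1.06e-06).

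In SUM44 cells KRT7 measured 212, 222 and 226 CPM in SUM44PE, 328, 341 and 244 CPM in SUM44F, 119 and 122 CPM in LTED-A, and 37.5, 39.6 and 41.1 CPM in LTED-B. The 4 groups did not overlap, and SUM44F replicate 3 was low among its replicates. KRT7 fell in both variants, at a log2 fold change of -1.34 ± 0.13 in LTED-A (edgeR adjusted p = 2.08e-05) and -2.95 ± 0.12 in LTED-B (edgeR adjusted p = 2.75e-08), a 7.73-fold lower level. Without LTED-A replicate 1 the LTED-A difference was -1.28 at an edgeR adjusted p of 0.00107, and the call was lost. The variants also differed from each other, by 1.62 ± 0.13 (LTED-A above LTED-B, edgeR adjusted p = 7.89e-06). Without SUM44F replicate 1, the library with the high fibroblast markers, the differences were -1.28 and -2.90 and both calls held. The opposite strand of KRT7 carries KRT7-AS, an antisense RNA that shares 282 exon bases, 7.05% of those of KRT7. KRT7-AS averaged 4.57 CPM in MM134 parental and 4.99 to 7.47 CPM in its variants, and 14.6, 5.57 and 2.14 CPM in SUM44F, SUM44 LTED-A and SUM44 LTED-B. Whether the counting used strand is not given in the sources used here, so reads from the shared bases cannot be told apart.

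**Figure D2:**
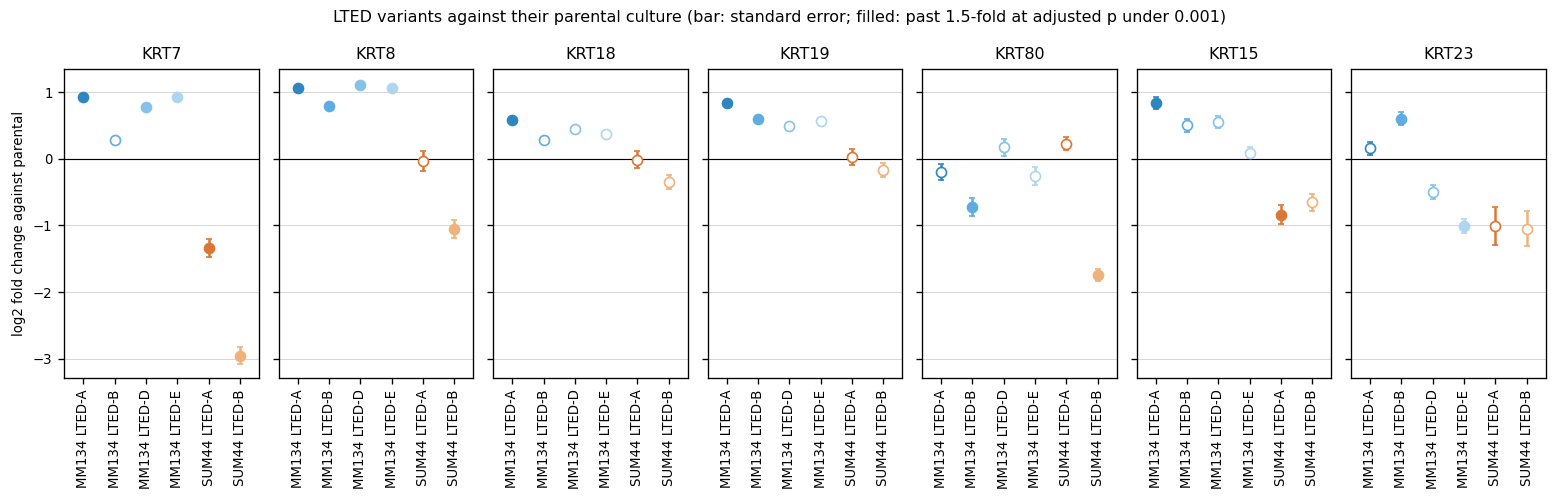
Log2 fold change of 7 keratins in each LTED variant against its parental cells, with bars of 1 standard error on either side. Filled points passed 1.5-fold at an adjusted p under 0.001. KRT7 lies between 0.28 and 0.93 in the MM134 variants and at -1.34 and -2.95 in the SUM44 variants.

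KRT80, a type II keratin found close to desmosomes, separated the cell lines. It measured 2.52, 2.29 and 1.97 CPM in MM134 parental against 76.5, 82 and 71.8 CPM in SUM44F, a 34.2-fold difference (log2 -5.10 ± 0.09, edgeR adjusted p = 1.43e-21). All MM134 libraries lay between 1.22 and 2.65 CPM and all SUM44 libraries between 22 and 99.3 CPM, so the lines did not overlap. Within SUM44, KRT80 measured 58.8, 62.8 and 64.1 CPM in SUM44PE, 99.3 and 80.3 CPM in LTED-A, with 22, 23.5 and 23.3 CPM in LTED-B. LTED-B was below every other SUM44 library, and LTED-A overlapped SUM44F. KRT80 fell by 1.74 ± 0.09 on the log2 scale in LTED-B, a 3.35-fold lower level (edgeR adjusted p = 1.22e-07), and the difference in LTED-A was 0.23 (edgeR adjusted p = 0.0896). LTED-A was 1.97 ± 0.10 above LTED-B (edgeR adjusted p = 3.25e-07).

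Within MM134 KRT80 was called only in LTED-B, where it measured 1.51, 1.37 and 1.22 CPM and lay below all parental libraries. The difference was -0.72 ± 0.13 (edgeR adjusted p = 0.000177). Without parental replicate 1 it was -0.64 (edgeR adjusted p = 0.00166) and without LTED-B replicate 3 it was -0.65 (0.00131), so the call was lost in both. KRT80 measured 1.99, 1.8 and 2.14 CPM in LTED-A. In LTED-D it measured 2.65, 2.41 and 2.53 CPM, and in LTED-E 1.78, 2.12 and 1.75 CPM, all overlapping the parental range. The differences there were -0.20, 0.17 and -0.26, none of them called.

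KRT23, a divergent type I keratin, moved in opposite directions among the MM134 variants. It measured 4.34, 3.86 and 4.31 CPM in MM134 parental, 4.46, 4.97 and 4.55 CPM in LTED-A, with 5.8, 6.28 and 6.84 CPM in LTED-B. It measured 3, 3.11 and 2.67 CPM in LTED-D and 1.98, 2.24 and 1.92 CPM in LTED-E. No variant overlapped the parental range: LTED-A and LTED-B were above it, and LTED-D and LTED-E below. KRT23 rose by 0.60 ± 0.10 in LTED-B (edgeR adjusted p = 3.36e-05) and fell by 1.01 ± 0.11 in LTED-E (edgeR adjusted p = 1.43e-07). The differences of 0.15 in LTED-A and -0.50 in LTED-D (edgeR adjusted p = 0.00048) were not called. The LTED-B call was lost, at 0.54, without parental replicate 2 or LTED-B replicate 3.

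In SUM44 cells KRT23 measured 1.14, 1.48 and 1.08 CPM in SUM44PE, 2.93, 1.48 and 1.67 CPM in SUM44F, 0.988 and 1.01 CPM in LTED-A, with 1.08, 0.889 and 0.96 CPM in LTED-B. Both variants lay below SUM44F, whose replicate 1 was the high one. The differences of -1.01 and -1.05 were not called (edgeR adjusted p = 0.0193 and 0.00737). Without SUM44F replicate 1 they were -0.66 and -0.70.

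Of the basal keratins only KRT15, a type I keratin of basal progenitor cells, was measured above 1 CPM in every library. It measured 4.2, 4.26 and 3.98 CPM in MM134 parental, 7.25, 7.98 and 7.05 CPM in LTED-A, and 5.8, 5.97 and 5.82 CPM in LTED-B. It measured 5.94, 6.48 and 5.71 CPM in LTED-D and 4.96, 3.87 and 4.31 CPM in LTED-E. LTED-E overlapped the parental range and the other 3 variants lay above it. KRT15 rose by 0.83 ± 0.09 in LTED-A (edgeR adjusted p = 2.22e-07). The differences of 0.50 in LTED-B, 0.55 in LTED-D and 0.08 in LTED-E were not called, although LTED-D passed, at 0.60, without LTED-D replicate 3.

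KRT15 measured 4.36, 3.86 and 4.71 CPM in SUM44PE, 3.8, 3.88 and 3.86 CPM in SUM44F, 2.25 and 2.07 CPM in SUM44 LTED-A, with 2.41, 2.45 and 2.48 CPM in SUM44 LTED-B. Both SUM44 variants lay below both SUM44 parental cultures. KRT15 fell by 0.84 ± 0.14 in LTED-A (edgeR adjusted p = 0.000872), a call that each of the 8 fits without 1 library lost, at -0.78 to -0.85 and edgeR adjusted p-values of 0.00225 to 0.0067. In LTED-B the difference was -0.65 (edgeR adjusted p = 0.00147).

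KRT17, a type I keratin of basal and stressed epithelium, stood at 38, 33 and 49 counts in the SUM44F replicates, or 0.824, 0.644 and 0.545 CPM. It had 5, 5 and 7 counts in SUM44PE, 0 and 3 in SUM44 LTED-A and 0, 1 and 4 in SUM44 LTED-B. SUM44F was above every other library, and the 2 variants sat at or near 0. No LTED-A library passed 3 counts of KRT17, which put it at least 13.4-fold below SUM44F (edgeR adjusted p = 0.000203). It was lower in LTED-B by a ratio of 21.2 with a 95% counting interval of 8.83 to 66.5 (5 against 120 counts, edgeR adjusted p = 0.000111). The LTED-A call was lost without LTED-A replicate 1 (edgeR adjusted p = 0.0021), without LTED-A replicates 2 and 3 (0.0024), and with pseudogene counts added, which gave -1.32 (edgeR adjusted p = 0.00729). With pseudogene counts the LTED-B difference was -1.73 (edgeR adjusted p = 0.000633). KRT17 had 2, 3 and 0 counts in MM134 parental, 12, 5 and 15 in LTED-A, 7, 1 and 5 in LTED-B, 4, 4 and 6 in LTED-D, and 5, 4 and 4 in LTED-E. No MM134 contrast tested it. The summed counts were 5 in the parental cells and 32, 13, 14 and 13 in the variants. The ratio of parental to variant was 0.315 in LTED-A with a 95% counting interval of 0.0958 to 0.814. The intervals of 0.131 to 1.4, 0.107 to 1.12 and 0.145 to 1.55 in the other 3 variants include 1, so no difference was detectable there at this depth.

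KRT14 and KRT5, the pair of basal and myoepithelial cells, were close to the limit of detection. KRT14 had 0 to 5 counts in every MM134 library, 4, 5 and 25 in SUM44PE, 5, 13 and 9 in SUM44F, 1 and 1 in SUM44 LTED-A and 0, 0 and 2 in SUM44 LTED-B. KRT5 had 0 or 1 in the MM134 libraries, 1, 4 and 1 in SUM44PE, 7, 2 and 2 in SUM44F and 0 in every SUM44 variant library. SUM44F was therefore at least 3.07-fold and 2.34-fold above LTED-A and LTED-B for KRT14. For KRT5 no bound is given, since it rested on SUM44F replicate 1. KRT5 passed 3 counts only in SUM44F replicate 1, the library with the high fibroblast markers, and in SUM44PE replicate 2. Counting intervals and floors cover counting error only.

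Read by comparison, 7 of the 10 members could be tested in MM134 and 8 in SUM44, since KRT5 and KRT14 were too low in both lines and KRT17 in MM134. In MM134 LTED-A 5 of 7 rose and none fell, against 10.5% of all tested genes higher and 9.82% lower. In LTED-B 3 rose and 1 fell (all genes 8.11% and 7.75%). Without LTED-B replicate 3 only 2 members were called there. In LTED-D 2 rose (all genes 9.63% higher and 7.95% lower) and in LTED-E 2 rose and 1 fell (8.71% and 10.3%). KRT8 was called in all 4 variants and KRT7 in LTED-A, LTED-D and LTED-E. The median log2 fold change of the 7 was 0.83, 0.50, 0.49 and 0.37 in the 4 variants, against -0.01, 0.02, -0.03 and 0.02 over all tested genes. The 4 contrasts share the parental libraries, so they are not independent.

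In SUM44 LTED-A 3 of 8 members fell (KRT7, KRT15 and KRT17), against 7.28% of all tested genes lower and 6.39% higher. Without LTED-A replicate 1 none was called, and without LTED-A replicates 2 and 3 only 1 was. In LTED-B 4 of 8 fell (KRT7, KRT80, KRT8 and KRT17), against 8.57% lower and 8.69% higher. KRT17 passed the filter on low counts only through SUM44F, so it could be called only lower. Its direction in both counts was fixed by the filter and adds nothing to the comparison with all genes. No member rose in either variant, and the medians were -0.43 and -1.05 against -0.06 and -0.09 over all tested genes. These 2 contrasts share SUM44F. Without SUM44F replicate 1, the library with the high fibroblast markers, the KRT7 and KRT17 calls held in both variants and the KRT8 and KRT80 calls in LTED-B, where KRT80 was at -1.75. Between the variants 3 members (KRT7, KRT8 and KRT80) were higher in LTED-A and none lower, against 3.56% and 3.86% of all tested genes.

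The MM134 variants differed among themselves in 4 of 7 members, against 19.6% of all tested genes. KRT23 differed by 1.61 between the highest and lowest variant (edgeR adjusted p = 4.59e-10), KRT80 by 0.89 (0.000124), KRT15 by 0.75 (6.6e-06) and KRT7 by 0.65 (1.9e-11). KRT19, KRT8 and KRT18 differed by 0.36, 0.31 and 0.30 and were not called.

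SUM44PE and SUM44F, the 2 SUM44 parental cultures, differed in none of 9 members tested with edgeR, against 2.85% of genes higher and 2.72% lower in SUM44PE. At an unadjusted p under 0.05 the count was 4, and DESeq2 also called 0. KRT7 differed by -0.48 ± 0.10 (SUM44PE lower, edgeR adjusted p = 0.00465), KRT80 by -0.32 (0.00873) and KRT23 by -0.71 (0.055). KRT17 differed by a ratio of 4.68 (95% counting interval 2.8 to 8.29, SUM44F higher, edgeR adjusted p = 0.00215), and it was called with no filter on low counts and with the LTED-A replicates kept separate. With pseudogene counts added the KRT17 difference was -0.88 on the log2 scale (edgeR adjusted p = 0.0305). KRT14 differed by 0.87 (0.44), with SUM44PE replicate 3 the high library, and KRT8, KRT18, KRT19 and KRT15 by 0.01 to 0.16.

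Between the parental lines MM134 had 4 of 8 members lower and 2 higher than SUM44F, against 19.2% and 18.9% of all tested genes. KRT8 was 4.73-fold lower (log2 -2.24, edgeR adjusted p = 3.64e-17) and KRT18 2.73-fold lower (-1.45, 2.05e-15), beside KRT80. KRT17 was at least 7.63-fold lower, since no MM134 parental library passed 3 counts. It passed the filter on low counts only through SUM44F, so it could be called only lower here. With pseudogene counts, which were 77.8% to 100% of the pooled counts in MM134 parental, the KRT17 log2 difference was -2.09, smaller than that bound. KRT19 was 1.87-fold higher (0.90, 1.67e-11) and KRT23 2.05-fold higher (1.04, 1.38e-05). KRT7 at -0.56 and KRT15 at 0.09 were not called, and KRT7 passed, at -0.69, without SUM44F replicate 3.

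The LTED effect itself was compared between the lines as the difference between the average log2 fold change over the 4 MM134 variants and that over both SUM44 variants. It was more positive in MM134 for 6 of 8 members and more negative for none, against 10.8% and 10.2% of all tested genes. The difference was 2.86 for KRT7, 1.53 for KRT8, 1.23 for KRT15, 0.69 for KRT19 and 0.60 for KRT18. For KRT17, also among the 6, the fitted difference depends on the prior count and is no bound. KRT17 passed the filter on low counts only through SUM44F, which favoured a positive difference, so its call adds nothing to the count. KRT80 differed by 0.49 (edgeR adjusted p = 0.000953) and KRT23 by 0.82 (0.00242), neither past the thresholds together. The KRT18 call was lost in 9 of 23 fits without 1 library, at 0.52 to 0.58, and at 0.56 with DESeq2. KRT23 was called without SUM44F replicate 2 (1.00) or 3 (0.96).

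The make-up of the keratin pool, compared per kilobase of merged exons, differed by line. KRT19 held 72% to 77% of the summed level per kilobase in the MM134 groups and 34.3% to 43.8% in the SUM44 groups. KRT18 held 10.9% to 13.2% in MM134 and 30.6% to 34.7% in SUM44. KRT8 held 7.08% in MM134 parental, 8.28% to 10.4% in its variants, 27.5% to 28.9% in SUM44PE, SUM44F and SUM44 LTED-A, and 19.8% in SUM44 LTED-B. These shares depend on the lengths used. With the length of 1 reference transcript per gene (MANE Select), an alternative chosen after seeing the data, KRT8 held 14.1% in MM134 parental, 16.4% to 20% in its variants and 33.4% to 45% in the SUM44 groups. KRT19 then held 60.3% to 66.6% in MM134 and 23.2% to 32.2% in SUM44, and the highest KRT80 share was 0.699% in place of 1.53%.

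**Figure D3:**
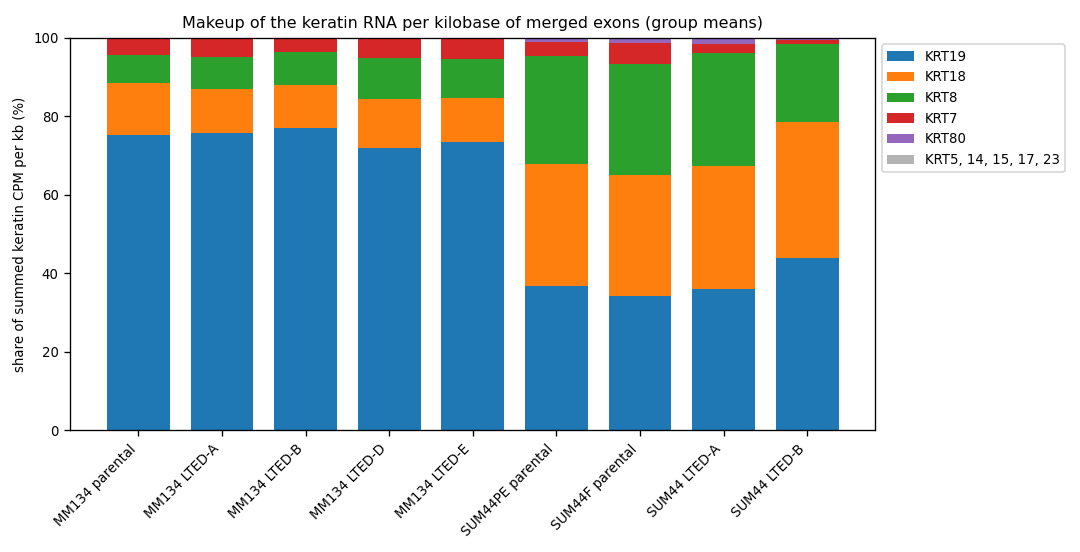
Share of each keratin in the summed keratin level per kilobase of merged exons, in percent, as stacked bars for the 9 groups. KRT19 fills 72% to 77% of the bar in the MM134 groups and 34.3% to 43.8% in the SUM44 groups.

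The ratio of KRT8 to KRT18, the partners of 1 filament, was 0.533, 0.535 and 0.544 per kilobase in MM134 parental and 0.712 to 0.891 over all MM134 variant libraries. It was 0.902 to 0.95 in SUM44F, 0.902 and 0.935 in SUM44 LTED-A, and 0.541, 0.555 and 0.619 in SUM44 LTED-B. The 2 low groups, MM134 parental and SUM44 LTED-B, overlapped each other and none of the rest. With MANE Select lengths the group means were 0.954 in MM134 parental and 1.32 to 1.54 in its variants. They were 1.58 to 1.65 in SUM44PE, SUM44F and SUM44 LTED-A and 1.02 in SUM44 LTED-B. By these means KRT18 stayed in excess in MM134 parental, while KRT8 was in excess in the other groups, narrowly in SUM44 LTED-B. With merged exons KRT18 was in excess in every library. A change of length scales the ratio of every library by the same factor, so the order of the groups cannot change with it. The ratio of all type II to all type I members was 0.128 to 0.13 in MM134 parental, 0.132 to 0.187 in the variants, 0.469 to 0.566 in the 2 SUM44 parental cultures, 0.487 and 0.481 in SUM44 LTED-A and 0.265 to 0.282 in SUM44 LTED-B. Type I was thus in excess of type II in every library on this scale. With MANE Select lengths the group means of the type II to type I ratio were 0.245 to 0.356 in MM134 and 0.533 to 1 in SUM44. The SUM44F libraries then ran from 0.939 to 1.04, so the type I excess did not hold in all of them.

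**Figure D4:**
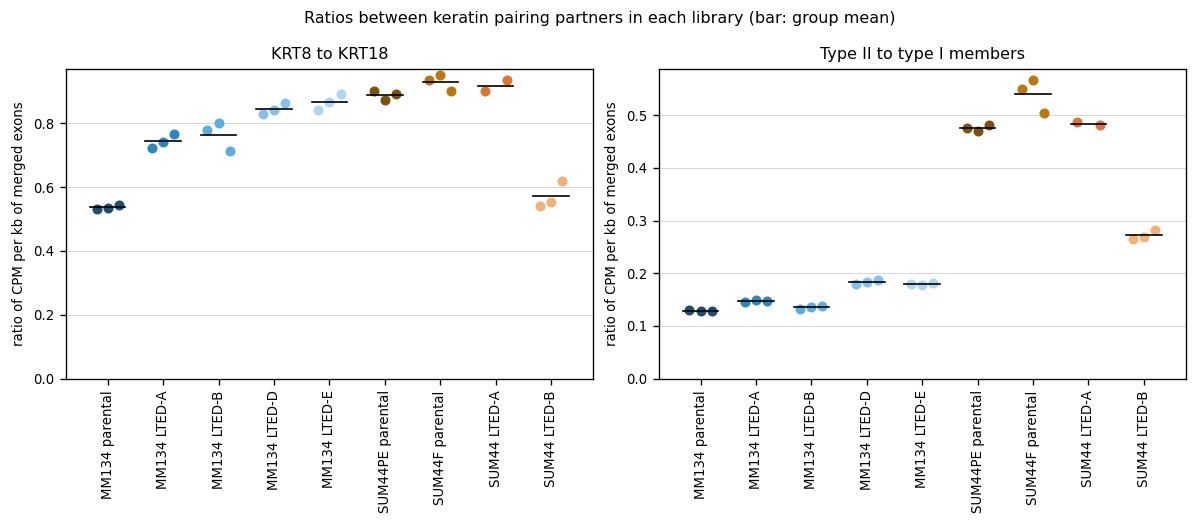
Ratio of KRT8 to KRT18 and of all type II to all type I keratins, per kilobase of merged exons, in every library of the 9 groups. The KRT8 to KRT18 ratio is lowest in MM134 parental (0.533 to 0.544) and SUM44 LTED-B (0.541 to 0.619).

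KRT8 and KRT18 also share bases, since their exons overlap on opposite strands over 525 bases, 7.63% of the exon bases of KRT8 and 17.1% of those of KRT18. Reads of those bases cannot be told apart where strand was not used. The pseudogene alternative left the KRT8 calls in place.

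The members' levels were also compared across the samples of 1 line. As a description over 15 MM134 samples, which share their groups, Pearson's r of log2(CPM + 0.5) was 0.904 for KRT8 with KRT18, 0.902 for KRT7 with KRT8 and 0.900 for KRT18 with KRT19. It was 0.880 for KRT7 with KRT18, 0.863 for KRT8 with KRT19 and 0.769 for KRT7 with KRT19. Over 8 SUM44 samples (SUM44F and the variants) KRT8 with KRT18 was 0.956, KRT7 with KRT8 0.915 and KRT18 with KRT19 0.871. The other 3 pairs were 0.855, 0.838 and 0.671, in the same order. KRT80 followed KRT8 in SUM44 (r = 0.963) and not in MM134 (r = -0.093). The genes most like KRT8 were LFNG, HOMER1 and RDH10 in MM134 (r of 0.995, 0.995 and 0.993) and in SUM44 ENSG00000261693, TMSB4X and VILL (0.993, 0.993 and 0.992). For KRT7 they were TMEM51-AS1, EPPK1 and ZNF598 in MM134 (0.991, 0.990 and 0.988) and MS4A14, CRACDL and ACKR3 in SUM44 (0.998 each). For KRT18 they were led by PPAN (0.984) and ARHGDIB (0.997), for KRT19 by PYCR1 (0.994) and TBCC (0.958), and for KRT80 by USP31 (0.922) and PTPRT (0.995). KRT15 was most like LINC01480 (0.960) and TRIM54 (0.998), and KRT23 most like SAMD9 (0.976) and PGR (0.997).

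The genes next to the keratin clusters are given for comparison. Of the 20 tested genes on either side, the median log2 fold change lay between -0.25 and 0.24 in the MM134 variants for both clusters. It lay between 0.04 and 0.51 in the SUM44 variants, where members fell. Between the parental lines it was 0.73 and 0.72 on either side of the type I cluster of chromosome 17, higher in MM134 than in SUM44F, against -0.09 over all tested genes.

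Among the other 45 protein-coding keratins, 7 could be tested in MM134 and 15 in SUM44. For these and the gene lists that follow, the shares over all tested genes are 8.11% to 10.5% higher and 7.75% to 10.3% lower in the MM134 variants, and 6.39% and 8.69% higher and 7.28% and 8.57% lower in SUM44 LTED-A and LTED-B. In the 4 MM134 variants 1, 0, 2 and 0 of the other keratins rose and 0, 1, 0 and 3 fell, and counts of 0 or 1 of 7 are near those shares. In SUM44 LTED-A 1 rose and 5 fell, and in LTED-B 3 rose and 5 fell. These counts include genes whose direction was fixed by the filter on low counts. KRT20 passed it only through SUM44F and could be called only lower, while KRT38 passed only through the variants and could be called only higher. How many others passed in such a way was not counted. KRT20, a keratin of gut and urothelial epithelium, had 49, 54 and 108 counts in SUM44F and 0 in every SUM44 variant library, which is at least 22-fold lower for LTED-A and 16.8-fold for LTED-B. KRT20 had 4, 3 and 3 counts in SUM44PE, below SUM44F by a ratio of 14 (95% counting interval 7.45 to 29.6). KRT38, a hair keratin, rose by 3.33 in SUM44 LTED-B, and KRT37, another hair keratin, rose by 1.81 and 2.87 in the 2 SUM44 variants and was at least 5.84-fold lower in MM134 LTED-E. KRT32 was at least 5.81-fold lower in MM134 LTED-E. KRT86 fell in the SUM44 variants (-2.21 and -3.21) and in MM134 LTED-B and LTED-E (-0.90 and -1.37). KRT81 fell by 1.59 in SUM44 LTED-B and rose by 1.19 in MM134 LTED-D. KRT81 and KRT86, hair keratins, are near-identical copies whose reads the counting could split, so their values are uncertain.

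Keratin filaments are tied to desmosomes and to each other by linker proteins. Of 15 linker genes tested in MM134, 6, 4, 4 and 3 rose and 2, 1, 2 and 2 fell, by variant. Of 14 in SUM44, none rose and 2 fell in LTED-A, and 1 rose and 5 fell in LTED-B. The LTED effect of 7 linker genes was more positive in MM134 and that of 2 more negative, of 15 tested (all genes 10.8% and 10.2%). EPPK1, the keratin-binding epiplakin, averaged 21.4 CPM in MM134 parental and rose by 3.07, 0.96, 2.21 and 2.74 in the 4 variants. It fell by 1.40 in SUM44 LTED-B. DSG2, a desmosomal cadherin, fell in all 6 variants, from 39.7 CPM to 3.16 to 8.01 CPM in MM134 and from 92.5 CPM to 31.6 and 18 CPM in SUM44. PKP2, a desmosomal plaque protein, rose by 1.37, 0.98, 1.28 and 1.92 in the MM134 variants, and FLG, which aggregates keratin, by 1.96, 1.51, 2.16 and 2.43.

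Of 8 other intermediate filament genes tested, 3, 3, 2 and 3 fell and none rose in the MM134 variants, and 3 fell and 2 rose in each SUM44 variant. NES, nestin, fell in all MM134 variants, at -3.20, -3.44, -2.52 and -3.23. VIM, the mesenchymal filament protein vimentin, had 1437, 390 and 677 counts in SUM44F and fell in the SUM44 variants, at -5.27 and -6.04, as did SYNM, synemin, at -3.92 and -1.78. SUM44F replicate 1, the highest of these, is the library with the high fibroblast markers. PRPH, peripherin, fell in all 6 variants, at -2.61, -1.76, -0.72 and -2.74 in MM134 and -3.10 and -1.90 in SUM44.

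Of 13 transcription factors known to act on keratin genes, 4 rose in each MM134 variant while 3, 1, 1 and 2 fell, where 1 of 13 is near the share over all genes. In SUM44 LTED-A 1 rose and 6 fell, and in LTED-B 1 rose and 2 fell. KLF4 rose by 3.61, 2.87, 1.81 and 4.01 in the MM134 variants and EHF by 2.94, 1.94, 1.57 and 2.60. TP63, the factor of basal epithelium, fell in the SUM44 variants, at -4.47 and -3.60. It also fell in MM134 LTED-A, D and E, at -1.91, -2.34 and -2.26. Its MM134 counts were low, at 16, 13 and 15 in parental and 15, 4 and 5 in LTED-A. They were 2, 4 and 3 in LTED-D and 5, 3 and 4 in LTED-E, so the MM134 sizes are imprecise. GRHL3 fell in SUM44 LTED-A, at -2.02, and in MM134 LTED-A, B and E, at -0.97, -0.87 and -1.67. Among the luminal markers ESR1, the estrogen receptor, fell by 1.28 in MM134 LTED-A and rose by 1.30 and 1.25 in the SUM44 variants. ESR1 was not called in the other MM134 variants, which lay on both sides of MM134 parental (372, 350 and 364 CPM). It measured 516, 552 and 538 CPM in LTED-B, 465, 473 and 460 CPM in LTED-D, and 262, 266 and 267 CPM in LTED-E. GATA3, a luminal transcription factor, rose by 1.08 and 0.85 in the SUM44 variants and fell in MM134 LTED-A and LTED-E, at -0.65 and -1.01. ACTA2, a smooth muscle actin on the basal list, rose by 0.79 and 0.89 in MM134 LTED-B and LTED-E. COL1A1, a fibroblast collagen, fell in the MM134 variants, at -0.97, -0.86, -0.75 and -1.59.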

How the data were processed

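RNA of 27 libraries was made with a TruSeq stranded total RNA kit and sequenced on an Illumina HiSeq. The authors used Salmon 0.6.0 on the hg38 transcripts of Ensembl release 82, and deposited estimated counts per gene for all 27 libraries, unfiltered. The strand setting and any trimming are not given in the sources used here. Of 60619 gene IDs, 56434 were named from GENCODE 44, 7473 had no count in any library, and 0 columns of values were left unused. Estimated counts carry the uncertainty of reads shared by gene copies.

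Counts were rounded to whole numbers. Genes with low counts were removed with filterByExpr and libraries scaled by TMM. Contrasts were tested with the quasi-likelihood test of edgeR 4.0.16 (limma 3.58.1, R 4.3.3), two-sided, with Benjamini-Hochberg adjustment. Each cell line had its own fit, and a fit of both lines served for differences between them, all without SUM44PE. A further fit added SUM44PE to the other SUM44 groups, for SUM44PE against SUM44F. A call needed over 1.5-fold at an adjusted p under 0.001. Levels are CPM after one TMM scaling of the 26 samples used. A gene at or under 3 counts in every library of a group was set to that floor for a bound. Counting intervals are exact at 95%.

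Library totals of 28583554 to 134882175 counts set the precision. The replicate check used genes with at least 20 summed counts. The test was checked on simulated data in which only well-counted genes changed and the spread was fixed. That check does not cover members near the limit of detection or groups with a larger spread. Replicate numbers did not pair the samples (see the closing section). Alternatives were DESeq2 1.42.0, DESeq2's size factors, no filter, a replicate block, pseudogene counts added, the SUM44 LTED-A replicates kept separate, an adjusted p under 0.05 with no fold minimum, CPM without TMM, MANE Select lengths and each library left out in turn.

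All 10 members were named, and of each other gene list the called genes with the largest fold change and a mean of at least 1 CPM in a group. Up to 4 were named from a list, up to 8 from the other keratins, and the 3 most similar genes were ranked for each member. The members and lists were chosen with earlier results of these data known. A few items are not reported here.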

Additional observations from a re-analysis of the deposited data

Results flagged for a closer look

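The LTED effect, the mean log2 fold change of the variants against their parental cells, differed between MM134 and SUM44 by a test of the difference itself (edgeR's quasi-likelihood test on both lines) for 6 keratins. The effect in MM134 minus that in SUM44 was 2.86 for KRT7, 1.53 for KRT8, 1.23 for KRT15, 0.69 for KRT19 and 0.60 for KRT18. For KRT17 it was a fitted 5.93, which depends on the prior count since MM134 parental had at most 3 counts in any library, and is no bound. KRT17 passed the filter on low counts only through SUM44F, which favoured a positive difference. Groups held 2 or 3 samples, too few to test a single sample as an outlier.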

How the results depend on the processing

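Of 40 calls of a member over the 11 comparisons, 30 held in every fit that left out 1 library, and no called member changed sign under any alternative. With 1 library left out, the number of members called ran from 2 to 4 in MM134 LTED-B (4 with all libraries), from 0 to 2 in SUM44 LTED-A (3), and from 0 to 0 for SUM44PE against SUM44F (0). An adjusted p under 0.05 with no fold minimum called 7 members in MM134 LTED-B, 6 in LTED-D, 5 in LTED-E, 7 among the MM134 variants, 7 in SUM44 LTED-B and 3 between SUM44PE and SUM44F. No filter on low counts, or the SUM44 LTED-A replicates kept separate, called 1 between SUM44PE and SUM44F. Members whose difference was near 0 changed sign: KRT8 in SUM44 LTED-A was 0.01 with DESeq2's size factors and with DESeq2, 0.03 with replicates separate, 0.02, 0.03 and 0.13 without SUM44F replicate 1, SUM44F replicate 2 or LTED-A replicate 1. KRT18 there was 0.03, 0.03 and 0.04 with the same 3 alternatives, 0.00 with no filter, and 0.03, 0.03 and 0.12 without those libraries, with -0.07 without SUM44F replicate 3 and -0.10 without LTED-A replicates 2 and 3. KRT19 there was -0.10 without LTED-A replicates 2 and 3. KRT15 in MM134 LTED-E ranged from -0.01 (without LTED-E replicate 1) to 0.17. KRT8 in SUM44PE against SUM44F was -0.01 without SUM44PE replicate 2 and -0.05 without SUM44F replicate 3, and at most 0.07. Between the SUM44 variants KRT23 was -0.00 with a replicate block and -0.02 to 0.11 with 1 library left out (lowest without LTED-B replicate 2), and KRT17 was 0.40 with pseudogene counts and -0.92 to 0.42 with 1 library left out (highest without LTED-B replicate 3) and -3.81 without LTED-A replicates 2 and 3. Replicate numbers did not pair the samples: same-numbered samples had median correlations of -0.030, -0.055 and -0.075 of their deviations from the group means in the MM134, SUM44 with SUM44PE, and SUM44 fits. A replicate block called 2 members in SUM44 LTED-A (3 without it), losing KRT15 at -0.83 (edgeR adjusted p = 0.00456), and 2 between the SUM44 variants (3 without it), losing KRT8 at 0.99 (0.00307), where it called 1360 genes of all against 1990, and left the other member counts as they were. CPM without TMM moved the summed keratin level to 3727 in MM134 parental (from 3420), 4915 in LTED-B (5081), 5012 in LTED-D (5233) and 3259 in SUM44 LTED-B (3434), and pseudogene counts moved it to 3445 in MM134 parental. Without TMM the members held a mean of 0.603% of library counts in SUM44F and 0.587% in SUM44PE, with overlapping ranges. SUM44F thus stood above SUM44PE, while with TMM it stood below (5585 and 5752 CPM). The type II to type I ratio in MM134 parental was 0.131 with pseudogene counts (0.129 without). MANE Select lengths gave ratios of 0.245, 0.285, 0.266, 0.356 and 0.345 in MM134 parental and its 4 variants, and 0.901, 1, 0.921 and 0.533 in SUM44PE, SUM44F, SUM44 LTED-A and SUM44 LTED-B. Over all genes the looser threshold called 13860, 12624, 13401 and 13296 genes in the 4 MM134 variants (5299, 4135, 4581 and 4947 at the main threshold), 9687 and 12303 in the SUM44 variants (3669 and 4632), 15724 among the MM134 variants (5100), 6491 between the SUM44 variants (1990), 6338 between SUM44PE and SUM44F (1530), 19061 between the parental lines (11125) and 13275 for the LTED effect (6111). Between the SUM44 variants 1104 to 1165 genes were called without LTED-A replicate 1 or an LTED-B replicate. The causes were not tested. KRT5, KRT14 and, outside SUM44F, KRT17 lie at the limit that these depths allow.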
